A study of Caenorhabditis elegans with 16 samples.

Results

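The genes described here are 9 genes of the *C. elegans* TORC1 and Rag GTPase pathway: *let-363*, *daf-15*, *raga-1*, *ragc-1*, *rheb-1*, *rsks-1*, *flcn-1*, *nprl-2* and *nprl-3*. They were chosen by name, as the genes whose symbol the array's annotation gives to a probe set. No cut on a measured value was used, but earlier results of these data were known when they were chosen. All 9 were found, each with 1 probe set, among 25498 genes tested, and all 9 had a mean level at or above the median of those genes.

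TORC1 is a protein kinase complex that promotes growth and protein synthesis when nutrients are plentiful, and that restrains autophagy and lysosome formation. Amino acids act on it through the Rag GTPases, which bring the complex to the lysosome surface, where the small GTPase Rheb switches it on. In mammals the GATOR1 complex and folliculin act on the Rag GTPases in opposite senses, and the product of *C9orf72*, whose worm orthologue is *alfa-1*, is related in structure to folliculin through its DENN domain. Much of this control is known to lie in protein binding, nucleotide state and phosphorylation, which an RNA measurement does not read.

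The study asked what the loss of *alfa-1* changes in the transcriptome of worms with and without food. RNA of whole worms was hybridised to Affymetrix arrays, with 4 arrays in each of 4 groups and 16 in all: *alfa-1(ok3062)* mutants starved for 6 hr, N2 worms starved for 6 hr, well-fed *alfa-1(ok3062)* mutants and well-fed N2 worms. The starved worms were rocked in M9 buffer without food. For the well-fed worms the labels give the same 6 hr in M9 buffer with food, whereas the methods have them frozen at once, so time in buffer and the lack of food cannot be told apart here with certainty. The labels give the stage as L3 and the methods as L3/L4, and the labels name the wild-type strain IW314 and the mutant strain IW313, although one field of every sample reads IW314. The mutant carries 1 deletion allele, and the methods have mutant strains backcrossed to N2. The labels do not say whether the arrays within a group are separate cultures, so a p-value here is set against array-to-array spread that could be technical. The methods have collected worms split evenly between tubes, which were then frozen or starved, and do not say how many collections there were. Values are the deposited log2 expression values, on which a difference of 1 is a doubling, and levels of different genes are not compared, because they come from different probes.

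*alfa-1* itself, the mutated gene, went with the labels on all 16 arrays. Its log2 value was 7.39 to 7.67 on the arrays of starved mutants, against 9.23 to 9.59 on those of starved N2, and 7.57 to 7.63 in well-fed mutants, against 9.11 to 9.39 in well-fed N2. The groups did not overlap, and the difference was -1.89 in starved and -1.64 in well-fed worms (limma, adjusted p = 1.21e-08 and 1e-07). Array medians lay between 5.80 and 5.85. On the second principal component of all genes, which held 15.3% of the variance, 2 arrays stood apart: replicate 3 of starved N2 and replicate 2 of the starved mutants. Values without these arrays stand beside several of the results that include them. Markers of intestine, body wall muscle, neurons, hypodermis, germline, sperm, oocyte and adult worms were all read above 1.84, the lowest value of the series. That does not by itself show that each was detected. The lowest reading was that of the sperm marker *spe-38*, at 4.04, below the median gene at 5.85. By contrast, the adult markers read at least 11.10 on every array, *col-19* being the lowest, and the oocyte markers at least 8.78, *rme-2* being the lowest. These are high readings of adult markers in worms labelled L3, and the stage was not tested further.

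The RNA levels of the pathway genes varied little between arrays. The within-group standard deviation had a median of 0.0721 over the 9 genes, against 0.176 over all genes. It was 0.149 over genes with a mean at or above the median, a set not matched in level to the 9 genes. The range of a gene over all 16 arrays had a median of 0.355 for the 9 genes, against 0.742 over all genes. The narrowest range was that of *let-363*, at 0.236, and the widest that of *nprl-2*, at 0.749.

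**Figure D1:**
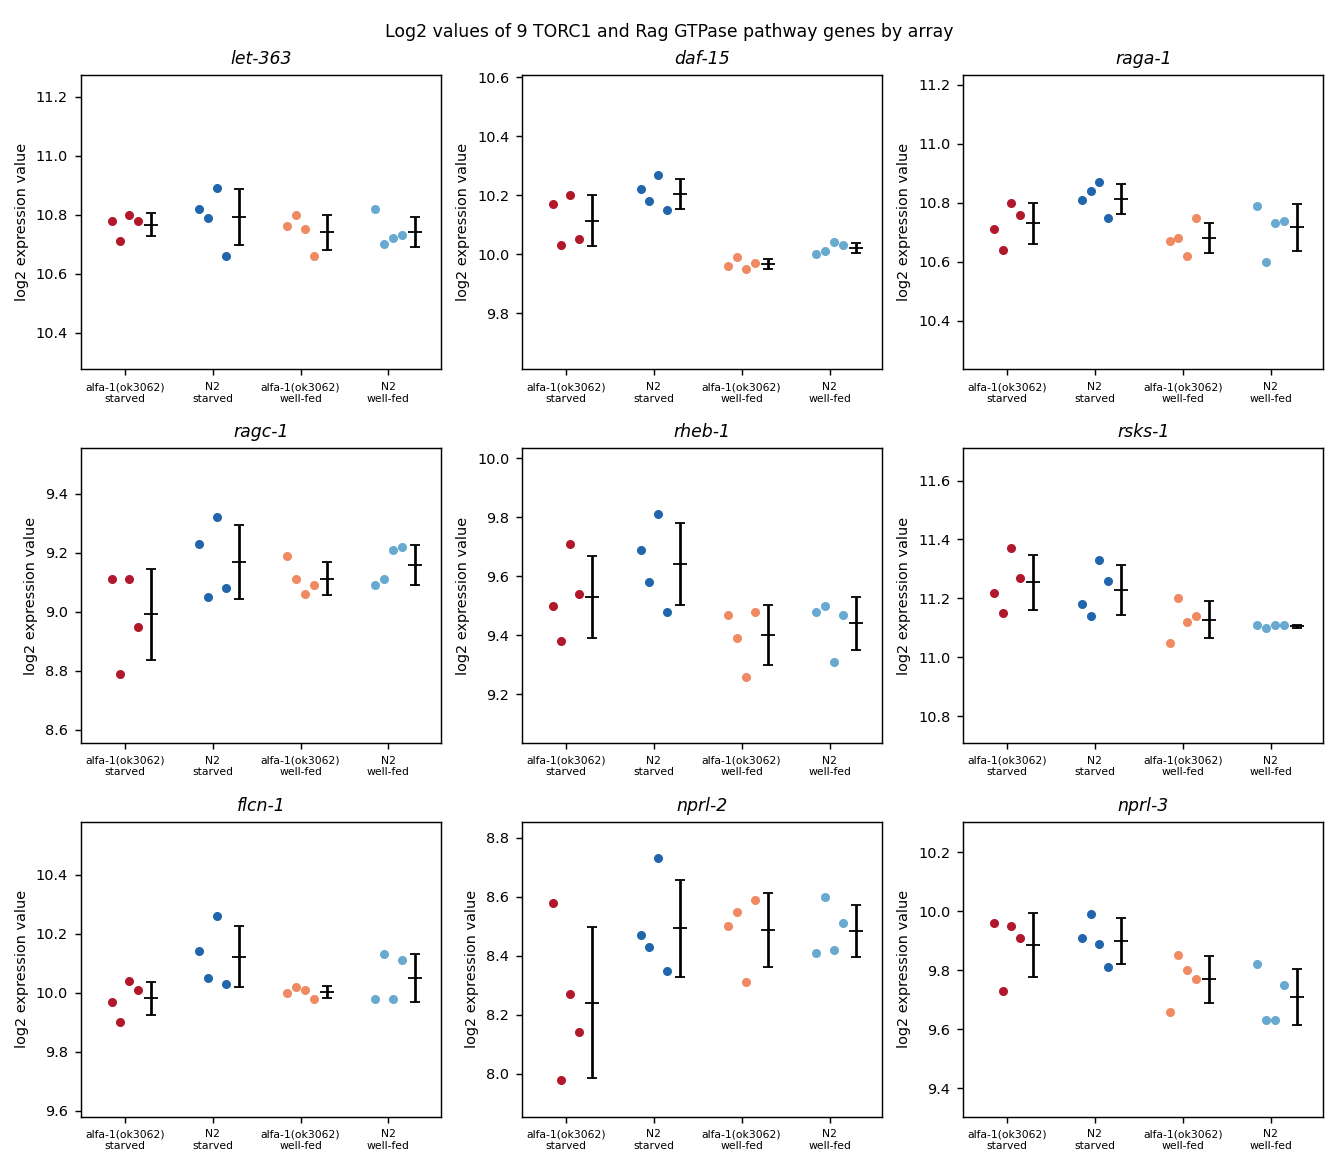
Log2 expression value (y axis, each panel spanning the same number of log2 units) of each of the 9 genes on each array, by group (x axis); points are arrays and the bar beside them is the mean ± SD of 4 arrays. The points of *daf-15* from starved worms lie above those from well-fed worms in both strains, while the groups of *let-363* lie on top of each other.

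The kinase subunit and its scaffold come first. *let-363* encodes the worm TOR kinase, which is shared by TORC1 and TORC2. Its log2 values were 10.78, 10.71, 10.80 and 10.78 in starved mutants, 10.82, 10.79, 10.89 and 10.66 in starved N2, 10.76, 10.80, 10.75 and 10.66 in well-fed mutants, and 10.82, 10.70, 10.72 and 10.73 in well-fed N2. All 4 groups overlapped. The difference between mutant and N2 was -0.03 in starved worms and 0.00 in well-fed worms, and between starved and well-fed worms it was 0.03 in the mutant and 0.05 in N2 (SE 0.0673 each). The 95% interval of the starved strain difference ran from -0.17 to 0.12, that is from 0.890 to 1.09 fold.

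*daf-15* encodes the worm Raptor, the subunit that marks TORC1 and presents substrates to the kinase, and it was the gene of the 9 that passed the test. In the mutant its log2 values were 10.17, 10.03, 10.20 and 10.05 in starved worms, against 9.96, 9.99, 9.95 and 9.97 in well-fed worms. Every starved array was above every well-fed array, and the difference of 0.15 (SE 0.0629) gave an adjusted p of 0.098. In starved N2 the values were 10.22, 10.18, 10.27 and 10.15, against 10.00, 10.01, 10.04 and 10.03 in well-fed N2. These groups did not overlap either. The rise in N2 was 0.18 (SE 0.0629), or 1.14 fold with a 95% interval of 1.04 to 1.25 (limma, adjusted p = 0.0468). The interaction, the mutant's starvation difference minus that of N2, was -0.03 with an interval of -0.22 to 0.15. The call in N2 lay close to the threshold: it was lost in 13 of 16 fits with 1 array left out, with an adjusted p of up to 0.107, which came without replicate 3 of starved N2, where the difference was 0.16. Some of these fits left out a mutant array, which does not enter the N2 difference. In them the difference stayed at 0.18, with an adjusted p of 0.0512 to 0.0596.

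The Rag GTPases follow. *raga-1* encodes the worm RagA, and *ragc-1* the worm RagC, and the proteins work as a pair. For *raga-1* the log2 values were 10.71, 10.64, 10.80 and 10.76 in starved mutants, against 10.81, 10.84, 10.87 and 10.75 in starved N2, and 10.67, 10.68, 10.62 and 10.75 in well-fed mutants, against 10.79, 10.60, 10.73 and 10.74 in well-fed N2. Each of these pairs of groups overlapped. The strain difference was -0.08 in starved worms and -0.04 in well-fed worms (SE 0.067 each, limma, adjusted p = 0.632 and 1). Without both arrays that stood apart the starved difference was -0.04, and over the 29 alternatives it ran from -0.11 to -0.03.

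For *ragc-1* the log2 values were 9.11, 8.79, 9.11 and 8.95 in starved mutants, against 9.23, 9.05, 9.32 and 9.08 in starved N2. The lowest of these was replicate 2 of the starved mutants and the highest was replicate 3 of starved N2, the 2 arrays that stood apart. The difference was -0.18 (SE 0.0864, limma, unadjusted p = 0.0568, adjusted p = 0.423), with an interval of -0.36 to 0.01. Without replicate 2 of the starved mutants it was -0.11, without replicate 3 of starved N2 -0.13, and without both -0.06 (adjusted p = 0.933). Over the 29 alternatives it ran from -0.22 to -0.06, so some made it larger. In well-fed worms *ragc-1* had 9.19, 9.11, 9.06 and 9.09 in the mutant, against 9.09, 9.11, 9.21 and 9.22 in N2, a difference of -0.05 (SE 0.0864). Starved against well-fed worms differed by -0.12 in the mutant and by 0.01 in N2, and neither passed (adjusted p = 0.34 and 0.955). Without replicate 2 of the starved mutants the mutant's difference was -0.05, and without replicate 3 of starved N2 that of N2 was -0.04.

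*rheb-1* encodes the worm Rheb, and *rsks-1* the worm S6 kinase, a substrate of TORC1 that acts on translation and growth. *rheb-1* had 9.50, 9.38, 9.71 and 9.54 in starved mutants, against 9.47, 9.39, 9.26 and 9.48 in well-fed mutants, and 9.69, 9.58, 9.81 and 9.48 in starved N2, against 9.48, 9.50, 9.31 and 9.47 in well-fed N2. The starved arrays lay mostly on the upper side, with overlap in both strains. The differences were 0.13 in the mutant and 0.20 in N2 (SE 0.0914 each, limma, adjusted p = 0.326 and 0.133). *rsks-1* had 11.22, 11.15, 11.37 and 11.27 in starved mutants, against 11.05, 11.20, 11.12 and 11.14 in well-fed mutants, and 11.18, 11.14, 11.33 and 11.26 in starved N2, against 11.11, 11.10, 11.11 and 11.11 in well-fed N2. The N2 groups did not overlap and the mutant groups did. The 2 differences were 0.13 and 0.12 (SE 0.0693 each, limma, adjusted p = 0.206 in the mutant and 0.228 in N2).

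The regulators of the Rag GTPases come last. *flcn-1* encodes the worm folliculin, which in mammals acts on RagC. Its values were 9.97, 9.90, 10.04 and 10.01 in starved mutants, against 10.14, 10.05, 10.26 and 10.03 in starved N2. The difference of -0.14 (SE 0.0701, limma, adjusted p = 0.433) was -0.12 without replicate 2 of the starved mutants, -0.10 without replicate 3 of starved N2 and -0.07 without both. Over the 29 alternatives it ran from -0.17 to -0.07. In well-fed worms it was -0.05, with 9.98 to 10.02 in the mutant and 9.98 to 10.13 in N2.

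*nprl-2* and *nprl-3* encode subunits of GATOR1, which in mammals acts on RagA as a brake on TORC1. *nprl-2* had 8.58, 7.98, 8.27 and 8.14 in starved mutants, against 8.47, 8.43, 8.73 and 8.35 in starved N2. Replicates 2, 3 and 4 of the starved mutants lay below every starved N2 array and replicate 1 lay within them. The difference of -0.25 (SE 0.118) had an unadjusted p of 0.049 and an adjusted p of 0.409, and it was -0.16 without replicate 2 of the starved mutants, -0.17 without replicate 3 of starved N2 and -0.09 without both (adjusted p = 0.926). Over the 29 alternatives it ran from -0.37 to -0.09, so some made it larger, and the smallest adjusted p was 0.138. In well-fed worms the values were 8.50, 8.55, 8.31 and 8.59 in the mutant, against 8.41, 8.60, 8.42 and 8.51 in N2, a difference of 0.00. Between starved and well-fed mutants the difference was -0.25 (adjusted p = 0.144). It was -0.36 with an adjusted p of 0.0217 without replicate 1 of the starved mutants, and -0.16 with an adjusted p of 0.363 without replicate 2.

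*nprl-3* did not show the low values of *nprl-2* in starved mutants. It had 9.96, 9.73, 9.95 and 9.91 there, against 9.66, 9.85, 9.80 and 9.77 in well-fed mutants, and 9.91, 9.99, 9.89 and 9.81 in starved N2, against 9.82, 9.63, 9.63 and 9.75 in well-fed N2. Only replicate 4 of starved N2, at 9.81, lay below any well-fed N2 array. The starvation difference was 0.12 in the mutant and 0.19 in N2 (SE 0.0781 each, limma, adjusted p = 0.304 and 0.0911), and the strain difference in starved worms was -0.01.

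**Figure D2:**
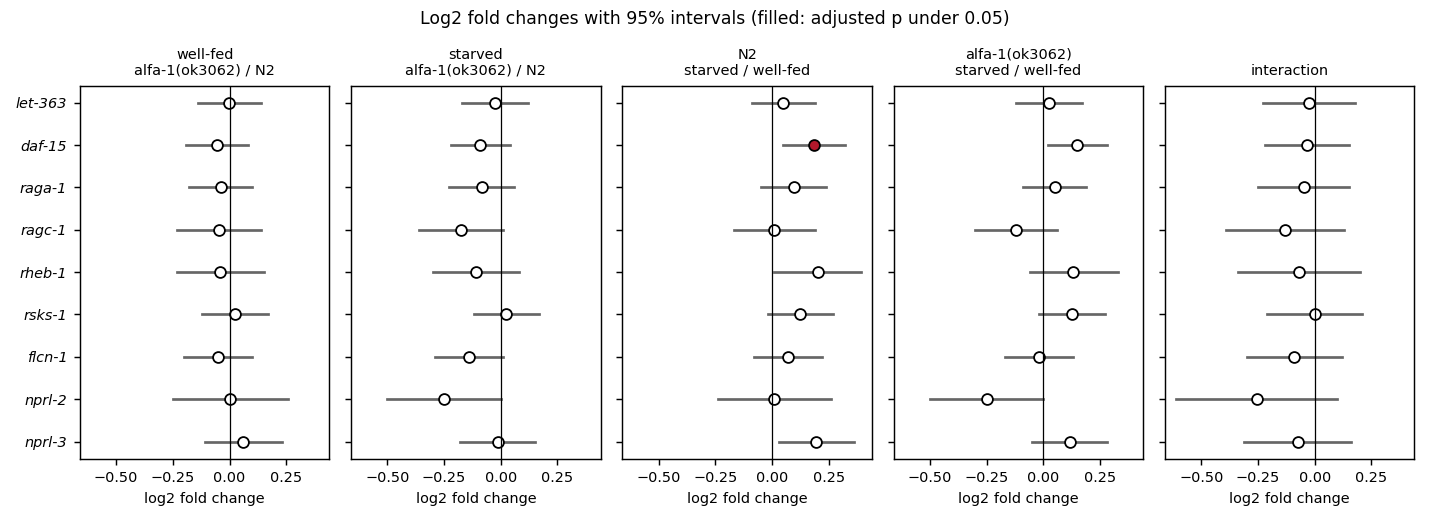
Log2 fold change (x axis) of each of the 9 genes (y axis) in the 5 comparisons, with 95% intervals from limma; a filled point passed at an adjusted p under 0.05. The filled point is *daf-15* in starved against well-fed N2, and the interval of *nprl-2* is the widest in every panel.

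Across the 9 genes, the loss of *alfa-1* in well-fed worms gave differences of -0.06 to 0.06. None passed limma, at an adjusted p of 1 each, and limma called 0.0902% of all genes. At an unadjusted p under 0.05 there were 0 of the 9, beside 4.72% of all genes. The 95% intervals together reached from 0.842 to 1.19 fold. *daf-15* was the gene whose arrays did not overlap, lower in the mutant at 9.95 to 9.99, against 10.00 to 10.04 in N2, and 4.26% of all genes had no overlap in this comparison, 2.1% being lower in the mutant. The median difference was -0.04, against 0.00 over all genes.

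In starved worms 8 of the 9 genes had a lower mean in the mutant than in N2, and *rsks-1* had a higher one, with differences of -0.25 to 0.02 and a median of -0.09, against -0.02 over all genes. None passed limma, which called 0.0941% of all genes, and the smallest adjusted p was 0.409. At an unadjusted p under 0.05 there was 1 gene, *nprl-2*, while 12.1% of all genes reached it. No gene of the 9 separated the groups without overlap, beside 4.24% of all genes. The intervals reached from 0.705 to 1.13 fold.

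The arrays that stood apart lay at the ends of their groups for nearly all of these genes. Replicate 3 was the highest of the 4 starved N2 arrays for 8 of the 9 genes, as it was for 40.0% of all genes, and replicate 2 was the lowest of the 4 starved mutant arrays for 9 of 9, as it was for 37.4% of all genes. Other arrays also had a side: replicate 3 of the starved mutants was the highest for 7 of 9 and replicate 4 of starved N2 the lowest for 7 of 9, against 26.2% and 28.8% of all genes. With both arrays that stood apart left out, the starved strain differences of the 9 genes ran from -0.09 for *nprl-2* to 0.09 for *rsks-1*, with 6 below 0 and 3 above. Leaving out the lowest mutant array and the highest N2 array of a gene raises its difference by construction. This shift is therefore no test of these arrays. Replicate 3 of the starved mutants and replicate 4 of starved N2 were each left out singly but not together.

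**Figure D3:**
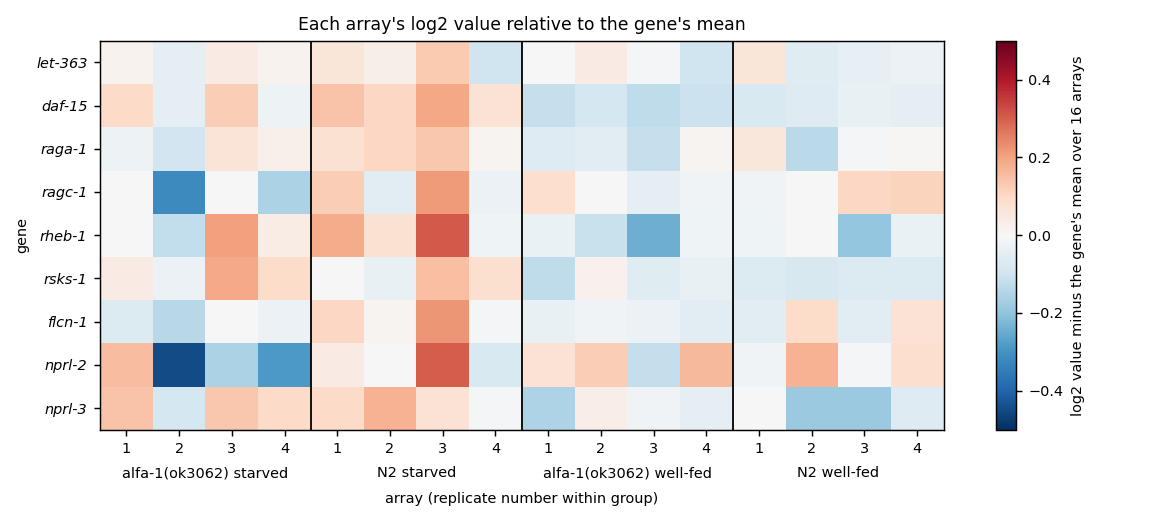
Each array's log2 value minus the gene's mean over 16 arrays (colour, in log2 units), for 9 genes (rows) and 16 arrays (columns, by group and replicate number). The column of replicate 3 of starved N2 is red for all 9 genes, and that of replicate 2 of the starved mutants is blue for all 9.

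Starvation of the mutant gave a higher mean for 6 genes and a lower one for *ragc-1*, *flcn-1* and *nprl-2*, with a median of 0.05, against -0.02 over all genes. None of the 9 passed, while limma called 25.3% of all genes, and the adjusted p ran from 0.098 to 0.867. Without replicate 2 of the starved mutants 7 genes had a higher mean and 2 a lower one. At an unadjusted p under 0.05 there was 1 gene, *daf-15*, which was also the gene without overlap, beside 36.4% and 27.4% of all genes.

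Starvation of N2 worms gave a higher mean for 9 of 9 genes, by 0.01 to 0.20, with a median of 0.10, against 0.01 over all genes. One gene passed, *daf-15*, as 1 of 9 genes beside 22.4% of all genes, or 10.8% that rose. At an unadjusted p under 0.05 there were 3, *daf-15*, *nprl-3* and *rheb-1*, beside 34.3% of all genes. The arrays of 2 genes, *daf-15* and *rsks-1*, did not overlap, beside 24.4% of all genes. Without replicate 3 of starved N2 the mean was higher for 7 genes and lower for *ragc-1*, at -0.04, and *nprl-2*, at -0.07. The median size of the difference over all 8 arrays, without its sign, was 0.097, against 0.171 over all genes and 0.22 over genes at least as bright as the median. The comparisons share arrays, each group entering 2 of the pairwise ones and the interaction as well, so their values stand side by side and are not independent.

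Whether the response to starvation depended on the strain was asked by the interaction, the starvation difference in the mutant minus that in N2. It was below 0 for 8 of the 9 genes, from -0.26 for *nprl-2* to 0.00 for *rsks-1*, and none passed (limma, adjusted p = 0.747 to 0.997, with 0 genes at an unadjusted p under 0.05). Over all genes limma called 0%, the smallest adjusted p being 0.735, and 6.44% had an unadjusted p under 0.05. The largest interval, that of *nprl-2*, ran from -0.61 to 0.10. Without both arrays that stood apart, which raises the interaction by construction in the same way, it was below 0 for 5 genes and above 0 for 4. It then ran from -0.09 for *nprl-2* to 0.07 for *rsks-1*.

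Some markers of tissue and stage moved with starvation beside these genes. Over all genes, limma called 25.3% in the mutant (10.9% higher and 14.3% lower) and 22.4% in N2 (10.8% higher and 11.6% lower). A single call in a list of 4 is close to those shares. In the mutant the hypodermis list had a mean log2 level of 9.63 in starved worms, against 10.17 in well-fed worms, with 1 of 4 markers lower past the threshold, and the adult list had 12.02, against 11.81, with 2 of 4 higher. Of the other lists in the mutant, 2 of 4 sperm markers (*spe-9* and *peel-1*) and 1 of 4 intestine markers (*ges-1*) fell, and 1 of 4 oocyte markers (*puf-5*) rose. In N2, 3 of 4 hypodermis markers fell (*dpy-7*, *rol-6* and *bli-1*), and the mean of the list was 8.69 to 9.83 on starved arrays, against 9.91 to 10.26 on well-fed arrays. Of the oocyte markers 3 of 4 rose in N2, at 11.42 to 11.65 in starved worms, against 11.11 to 11.26 in well-fed worms. Of the adult markers 3 of 4 rose in N2 (*vit-2*, *vit-5* and *vit-6*, which encode yolk proteins), at 12.09 to 12.31, against 11.63 to 11.87. In N2, 2 of 4 germline markers (*glp-1* and *gld-1*) also rose, while 1 marker each of sperm (*peel-1*), body wall muscle (*myo-3*) and neurons (*rab-3*) fell. No marker passed between the strains. The part of tissue and stage in the starvation differences was not tested, and in whole worms fewer cells of a type and less RNA per cell cannot be told apart.

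Several partners of the TOR complexes, in a list of 7, changed with food. In the mutant, where 10.9% of all genes rose and 14.3% fell, *ppfr-4* rose by 0.36, *rict-1* rose by 0.33 and *ruvb-1* fell by 0.29 (limma, adjusted p = 0.00153, 0.0116 and 0.0159). In N2, where 10.8% of all genes rose and 11.6% fell, 4 rose and none fell: *ppfr-4* by 0.48, *rict-1* by 0.52, *sinh-1* by 0.65 and *clk-2* by 0.36 (adjusted p = 0.000168, 0.000646, 0.00344 and 0.00702). In the mutant *sinh-1* differed by 0.26 and *clk-2* by 0.22, and neither passed (limma, adjusted p = 0.185 and 0.0733). *ruvb-1* differed by 0.07 in N2 (limma, adjusted p = 0.594). The median of the list was 0.22 in the mutant and 0.36 in N2, against -0.02 and 0.01 over all genes. *rict-1* encodes Rictor and *sinh-1* Sin1, which mark TORC2 rather than TORC1, and *clk-2* encodes a Tel2 protein, a factor known for the stability of TOR kinases. *rict-1* had 9.81, 9.63, 9.74 and 9.71 in starved mutants, against 9.37, 9.43, 9.29 and 9.48 in well-fed mutants, and 9.90, 9.81, 10.18 and 9.77 in starved N2, against 9.39, 9.32, 9.38 and 9.49 in well-fed N2. Neither strain's starved arrays overlapped its well-fed arrays.

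*ruvb-1* encodes a RuvB-like ATPase, known in mammals with Tel2 in the assembly of TOR kinases, and it was the gene of this list with the smallest p between starved strains. Its values were 9.77, 9.53, 9.90 and 9.83 in starved mutants, against 10.00, 9.99, 10.17 and 10.10 in starved N2. All 4 mutant arrays lay below all 4 N2 arrays. The difference was -0.31 (SE 0.0817), with an unadjusted p of 0.00172 and an adjusted p of 0.227, so it did not pass. Without both arrays that stood apart the difference was -0.20 (adjusted p = 0.635). In well-fed worms the values were 10.00 to 10.15 in the mutant and 9.96 to 10.04 in N2, a difference of 0.06. The interaction was -0.36 (unadjusted p = 0.00639, adjusted p = 0.735), and -0.25 without both arrays.

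The inputs to TORC1, of which 17 were tested, held genes that rose and genes that fell with starvation. In the mutant 3 rose and 2 fell, beside 10.9% and 14.3% of all genes, and in N2 5 rose and 2 fell, beside 10.8% and 11.6%. *sesn-1*, a sestrin, which in mammals senses leucine for GATOR, had 10.10, 9.96, 10.10 and 10.15 in starved mutants, against 9.71, 9.77, 9.55 and 9.70 in well-fed mutants, and 10.40, 10.06, 10.38 and 9.98 in starved N2, against 9.50, 9.70, 9.62 and 9.72 in well-fed N2. It rose by 0.40 in the mutant and by 0.57 in N2, with no overlap in either (limma, adjusted p = 0.00819 and 0.000739). *fnip-2*, a folliculin-interacting protein, rose by 0.31 in the mutant and 0.37 in N2 (adjusted p = 0.0336 and 0.0137), and *flcn-1* differed by -0.02 in the mutant and 0.07 in N2. *pdk-1*, a kinase upstream of Akt and S6 kinase, rose by 0.35 in the mutant and 0.63 in N2 (adjusted p = 0.0245 and 0.000627). *aak-1*, a catalytic subunit of AMPK, rose by 0.35 in N2, and *lmtr-3*, a Ragulator subunit, by 0.26 (adjusted p = 0.0114 and 0.024). In the mutant *aak-1* differed by 0.23 and *lmtr-3* by 0.09, and neither passed (limma, adjusted p = 0.0692 and 0.422). *lmtr-3* was named after its values were seen.

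*pept-1*, the intestinal peptide transporter, and *sgk-1*, a kinase known as a target of TORC2, fell in both strains. *pept-1* had 9.35, 9.08, 9.23 and 9.07 in starved mutants, against 9.90, 10.01, 10.16 and 9.89 in well-fed mutants, and 8.94, 9.43, 8.72 and 9.61 in starved N2, against 10.07, 10.01, 10.10 and 9.85 in well-fed N2. Both strains separated without overlap. It fell by 0.81 in the mutant and by 0.84 in N2, and *sgk-1* fell by 0.43 and 0.36 (limma, adjusted p for *pept-1* = 0.00146 in the mutant and 0.00121 in N2, and for *sgk-1* 0.000388 in the mutant and 0.00167 in N2).

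The outputs of TORC1, 17 genes tested, gave 7 that rose and 2 that fell with starvation in the mutant, where 25.3% of all genes passed, and 4 that rose and 1 that fell in N2, where 22.4% passed. *daf-16*, the worm FOXO factor, had 11.48, 11.32, 11.52 and 11.50 in starved mutants, against 10.89, 10.97, 10.84 and 10.82 in well-fed mutants, and 11.49, 11.44, 11.47 and 11.33 in starved N2, against 10.91, 10.89, 10.86 and 10.95 in well-fed N2. It rose by 0.58 and 0.53 without overlap (limma, adjusted p = 3.59e-05 in the mutant and 7.51e-05 in N2). *pha-4*, a FoxA factor, rose by 0.48 in the mutant and 0.35 in N2. Of the translation initiation factors that bind the mRNA cap, *ife-3* rose by 0.21 in the mutant and 0.34 in N2, while *ife-4* fell by 0.40 and 0.41, and *ife-1* fell by 0.37 in the mutant. *efk-1*, the kinase of elongation factor 2, rose by 0.36 in N2, and *sbp-1*, the worm SREBP, by 0.37 and *lpin-1*, a lipin, by 0.27 in the mutant. In the other strain these genes did not pass. *efk-1* differed by 0.25 in the mutant (limma, adjusted p = 0.105). In N2 *sbp-1* differed by 0.28, *lpin-1* by 0.18 and *ife-1* by -0.10 (limma, adjusted p = 0.0739, 0.0779 and 0.5). No gene of the lists passed the interaction.

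*hlh-30*, the worm TFEB, and *unc-51*, the autophagy kinase, are the further outputs that passed in the mutant, and were named after their values were seen. *hlh-30* had 10.32, 10.37, 10.38 and 10.37 in starved mutants, against 10.29, 10.06, 10.10 and 10.13 in well-fed mutants, a rise of 0.21 (limma, adjusted p = 0.0435), and in N2 the difference was 0.15 (adjusted p = 0.172). The starved mutants lay just above the highest well-fed mutant array. The call held in 6 of 16 fits with 1 array left out, with an adjusted p of up to 0.115 over the alternatives, and the interaction of 0.07 did not pass (adjusted p = 0.881). Between starved strains *hlh-30* differed by 0.03 (adjusted p = 0.903). *unc-51* rose by 0.22 in the mutant (adjusted p = 0.0372) and held in 9 of 16 such fits. In N2 *unc-51* differed by 0.18 and did not pass (limma, adjusted p = 0.0949).

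**Figure D4:**
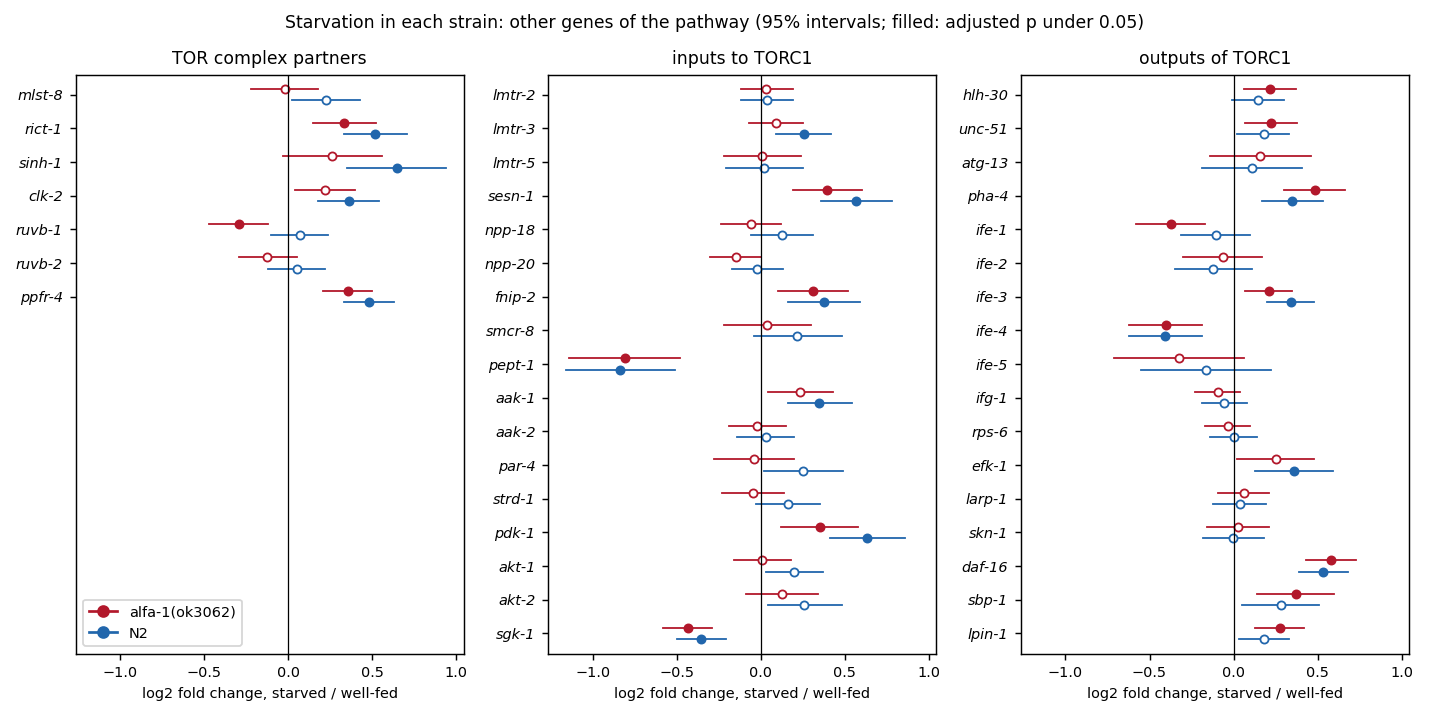
Log2 fold change of starved over well-fed worms (x axis) in *alfa-1(ok3062)* and N2, with 95% intervals, for the other genes of the pathway (y axis) in 3 lists; filled points passed at an adjusted p under 0.05. *pept-1* lies farthest to the left in both strains, and *rict-1*, *ppfr-4*, *sesn-1*, *fnip-2*, *pdk-1*, *pha-4*, *ife-3* and *daf-16* are filled on the right in both.

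Between the strains no gene of the 3 lists passed, in well-fed or in starved worms. The lists held 7, 17 and 17 tested genes. At an unadjusted p under 0.05 there was 1 of them in well-fed worms, beside 4.72% of all genes. It was *skn-1*, at -0.19 (limma, unadjusted p = 0.045, adjusted p = 1). In starved worms there were 6, beside 12.1% of all genes. All 6 were lower in the mutant, as were 7.27% of all genes: *ruvb-1*, *ruvb-2*, *rict-1*, *par-4*, *aak-1* and *ife-1*. Among these *par-4*, the worm LKB1 kinase, had 7.85 to 8.32 in starved mutants, against 8.25 to 8.71 in starved N2, a difference of -0.33 (SE 0.111, adjusted p = 0.309). One mutant array lay among the N2 arrays, the lowest value was replicate 2 of the mutants and the highest replicate 3 of N2, and without both the difference was -0.16. For the others of the 6 it was then -0.24 for *ife-1*, -0.20 for *ruvb-1*, -0.10 for *ruvb-2* and *aak-1*, and -0.07 for *rict-1*. *smcr-8*, whose mammalian counterpart forms a complex with the C9orf72 protein, was also looked up after its values were seen, and differed by -0.24 in starved worms (adjusted p = 0.443), or -0.15 without both arrays, and by -0.06 in well-fed worms.

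The genes most like the Rag GTPase genes were sought among 12748 genes with a mean at or above the median, by Pearson's r over the 16 arrays, as a description. For *raga-1* they were *F10E7.11* (r = 0.870, Spearman's rho = 0.818), *tost-1* (0.852 and 0.871) and *gpd-1* (0.850 and 0.862). For *ragc-1* they were *F35G2.14* (0.915 and 0.856), *rrf-1* (0.904 and 0.885) and *ctnb-1* (0.899 and 0.832). Without the 2 arrays farthest from the median of the Rag gene, r fell to 0.811, 0.821 and 0.767 for *raga-1*, and to 0.721, 0.712 and 0.765 for *ragc-1*. The 16 points share their arrays and their group structure, and the genes were picked for the height of r.

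*flcn-1* and *raga-1* lie on chromosome II, as does *alfa-1*, with 209 and 1104 tested genes in between in the assembly WBcel235. The other 7 genes lie on chromosomes I (*let-363*), III (*rheb-1* and *rsks-1*) and IV (*daf-15*, *ragc-1*, *nprl-2* and *nprl-3*). The well-fed strain differences of the neighbours on chromosome II were -0.05 for *flcn-1* and -0.04 for *raga-1*, within the range of the others.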

How the data were processed

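Whole-worm RNA of 4 groups was measured on 16 arrays. The authors deposited 1 log2 value for each probe set and array. Their processing notes name RMA and Partek without versions. RMA subtracts background and forces the arrays to one distribution, so a change shared by most genes is removed. No scanner signal was used, and precision is limited by how many arrays there are. The genome build of the annotation was not given in the sources used, so no coordinates are printed.

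Of 29317 probe sets, 25546 carried 1 gene, 646 several, and 3125 were not listed. For 37 genes with several probe sets the one with the highest mean was used, leaving 25498 genes, of which 25447 matched RefSeq (WBcel235) by gene ID, with 0 symbols changed. No value column lacked a sample. R 4.3.3 and limma 3.58.1 fitted 4 group means to all 16 arrays, with 12 residual degrees of freedom and default empirical Bayes settings (two-sided). P-values were adjusted by Benjamini-Hochberg over all genes, and a gene passed under 0.05. The fit was tested on simulated data. Figures were drawn with matplotlib 3.10.9 in Python 3.11.15, with pandas 2.3.3 and numpy 2.4.6.

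The 9 genes, the 3 further lists and the markers were chosen with earlier results of these data known. *wdr-24* was not analysed here, and *hif-1* was not used because its probe set lists several genes. The genes named are the 9, *alfa-1*, and from each list and comparison those that passed (at most 6 of smallest p) and the 2 of smallest p, plus the 3 genes most like *raga-1* and *ragc-1*. *hlh-30*, *unc-51*, *lmtr-3* and *smcr-8* fall outside that rule. Alternatives were other normalizations, fits, filters and replicate settings, and leaving out each array. Leaving out both arrays that stood apart was chosen after seeing the data.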

Additional observations from a re-analysis of the deposited data

Results flagged for a closer look

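In each group of 4 arrays, the highest and lowest values were set against the others by Dixon's test. Of 156 groups from 39 genes, 11 held an array far from the rest, and chance gives about 1 in 20. Among the 9 genes this was *rsks-1* in well-fed N2, where replicate 2 at 11.10 lay below the others at 11.11, a gap that owes its size to a group SD of 0.00578.

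In starved mutants *sinh-1* was low in replicate 2, at 7.24 against 7.77 to 7.86, *pha-4* was low in replicate 1, at 9.60 against 9.92 to 9.96, and *larp-1* was high in replicate 3, at 12.22 against 12.04 to 12.06. In starved N2 replicate 3 was high for *aak-1*, at 9.04 against 8.80 to 8.81, and for *ife-4*, at 7.61 against 7.34 to 7.37. Replicate 1 of starved N2 was high for *lpin-1*, at 12.35 against 12.15 to 12.18, and for *sbp-1*, at 9.35 against 8.84 to 8.92. In well-fed mutants *skn-1* was low in replicate 2, at 9.62 against 9.73 to 9.75, and *ife-1* high in replicate 4, at 8.14 against 7.86 to 7.91. In well-fed N2 *unc-51* was low in replicate 4, at 10.23 against 10.44 to 10.48.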

How the results depend on the processing

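Over 29 alternatives the values of the 9 genes kept their side of the threshold in 1260 of 1287 cases, with 16 calls lost and 11 gained. The sign changed in 60 cases, none of them a value that passed. In starved against well-fed mutants, where 0 passed, 1 passed with quantile normalization, with cyclic loess, with an intensity trend in the prior, without dim genes and at an unadjusted p (*daf-15*, adjusted p = 0.0281, 0.0175, 0.0435 and 0.0384 in the first 4), and leaving out 1 array gave 0 to 1. In starved against well-fed N2, where 1 gene passed, the count was 0 with the 8 arrays of the comparison alone, 0 with both arrays that stood apart left out, 2 with array weights, 2 without dim genes (*nprl-3* being the second in each, adjusted p = 0.0258 and 0.041) and 3 at an unadjusted p. Leaving out 1 array gave 0 to 1. In starved mutants against starved N2 the count was 1 at an unadjusted p. Apart from the replicate block, no other of the alternatives run moved a count of the 9 genes.

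No pairing by replicate number was stated. Residuals of same-numbered arrays correlated at -0.47 to 0.15 over the 4 comparisons, and at most 1 of 4 arrays correlated best with its own number. With 4 pairs in a comparison, this check cannot decide whether samples were paired. With a replicate block 0 of the 9 genes passed in starved against well-fed N2 (*daf-15*, adjusted p = 0.0741).

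Of 33 values of the 3 lists that passed, 20 passed in every alternative and 24 in every fit with 1 array left out, and 0 changed direction. Those lost with some array left out were *fnip-2*, *pdk-1*, *ife-3*, *sbp-1*, *ruvb-1*, *unc-51* and *hlh-30* in the mutant and *efk-1* and *lmtr-3* in N2, with adjusted p up to 0.154 over all alternatives. Under the methods' t-test the N2 values of *clk-2*, *fnip-2*, *ife-4* and *pept-1* were lost as well. Causes were not tested.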
